A study of Tribolium castaneum with 6 samples.

Results

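Numbered serine proteases and serine protease homologs of the red flour beetle, Tribolium castaneum, were examined in the transcriptome of larvae with a suppressed AMPKα gene. The genes were chosen by name, as those called P (for protease) or H (for homolog) followed by a number, or SPH followed by a number. Of the 15099 genes in the deposited tables, 4 had such a name: the proteases P121, P76 and P38, and the homolog H115. No gene carried an SPH name. All 4 were listed above 0 in every library and passed the filter on low values.

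Serine proteases of the chymotrypsin family cut proteins with a histidine, an aspartate and a serine in the active site, and most are made as inactive zymogens that are cut to become active. In insects they digest food protein in the midgut and act in haemolymph cascades that lead to melanization and to Toll signalling, and some act in moulting. Serine protease homologs keep the protease fold but lack catalytic residues and do not cut, and some are known as cofactors in the activation of prophenoloxidase. The annotation used by the study described P121 as a protein with a trypsin domain, while H115, a homolog by name, carried a serine peptidase term in the part of the study's gene ontology list that was used here. P76 and P38 are known here by their symbols alone, and a digestive or an immune role was not assigned to any of the 4.

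The RNA-Seq libraries came from larvae of the Georgia-1 (GA-1) strain, which were injected when 20 days old with about 200 ng of dsRNA (double-stranded RNA) and collected whole 6 days later. Larvae of the dsTcAMPKα group received dsRNA against AMPKα, the catalytic subunit of the energy sensor AMP-activated protein kinase, and control larvae received dsRNA against EGFP, a jellyfish protein that the beetle does not encode. Each library was made from a pool of 10 unsexed larvae, and each group had 3 libraries. All libraries therefore came from injected, dsRNA-treated animals, and with whole bodies, fewer cells of a type and less RNA per cell cannot be told apart.

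The libraries held 33518139 to 37584930 reads as estimated from the deposited coverage. The targeted gene, named Snf1a in the tables, was at 77.3, 74.9 and 56.9 FPKM in the dsEGFP libraries and at 10.7, 7.32 and 16.3 FPKM in the dsTcAMPKα libraries (log2 fold change -2.56, SE 0.29, adjusted p = 0.0164, limma), a call lost without dsEGFP replicate 2 or dsTcAMPKα replicate 1 or 2, with adjusted p up to 0.0934. In the values of 10981 genes tested, dsEGFP replicate 3 correlated with the other controls at 0.907 and 0.905, against 0.980 between those controls and 0.932 to 0.966 among the dsTcAMPKα libraries, and it is therefore named wherever a value rests on it. A change was called where the adjusted p was under 0.05 and the log2 fold change was beyond 1 in size. The median log2 fold change of all genes tested was 0.20, so that a gene at 0 on this scale lay below most others.

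P121 was the most abundant of the 4 genes and the only one whose transcript level changed by the test. It lies on the plus strand of sequence NC_007420.3 of the Tcas5.2 genome, from 1530759 to 1532324. Its level was 630, 743 and 341 FPKM in the dsEGFP libraries and 194, 280 and 207 FPKM in the dsTcAMPKα libraries. Every dsTcAMPKα library was below every dsEGFP library, with dsEGFP replicate 3 the nearest of the controls. The mean fell from 571 ± 207 (SD, n = 3) to 227 ± 46.6 FPKM (SD, n = 3), which was 2.52-fold lower. In the limma fit over all genes the log2 fold change was -1.27 (SE 0.32, 95% confidence interval -2.04 to -0.50, adjusted p = 0.0439). P121 was thus 1 of 4 members called lower, where 2.71% of the genes tested were called lower, and none of the 4 was called higher, where 4.09% of the genes tested were. In either direction 6.8% of the genes tested were called. Groups that did not overlap, with dsTcAMPKα the lower, were seen in 13.6% of the genes tested (31.2% in the other direction), and the two-sided exact permutation p of P121 alone was 0.1, the smallest that 3 against 3 allows.

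The call for P121 was close to its threshold. The log2 fold change stayed negative in all 16 alternative treatments of the data, from -2.22 to -0.996, while 6 of the 16 kept the call. The value of -2.22 came both with annotated transcripts only and with the most abundant transcript only. For P121 these are the same transcript, so these kept calls rest on the same values. Another kept call, with a filter at a mean of 5 FPKM, had an unchanged fold change. When libraries were left out in turn, the call was kept without dsEGFP replicate 3 (-1.61, adjusted p = 0.00933, limma). It was lost without dsEGFP replicate 1 (adjusted p = 0.106, limma), dsEGFP replicate 2 (0.121), dsTcAMPKα replicate 1 (0.139), dsTcAMPKα replicate 2 (0.108) or dsTcAMPKα replicate 3 (0.129). Most of these losses were shared by nearly all genes. Over all genes 747 calls became 0 without dsTcAMPKα replicate 1 or 2, 34 without dsTcAMPKα replicate 3 and 54 without dsEGFP replicate 2. Without dsEGFP replicate 1, however, 706 genes were still called.

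**Figure D1:**
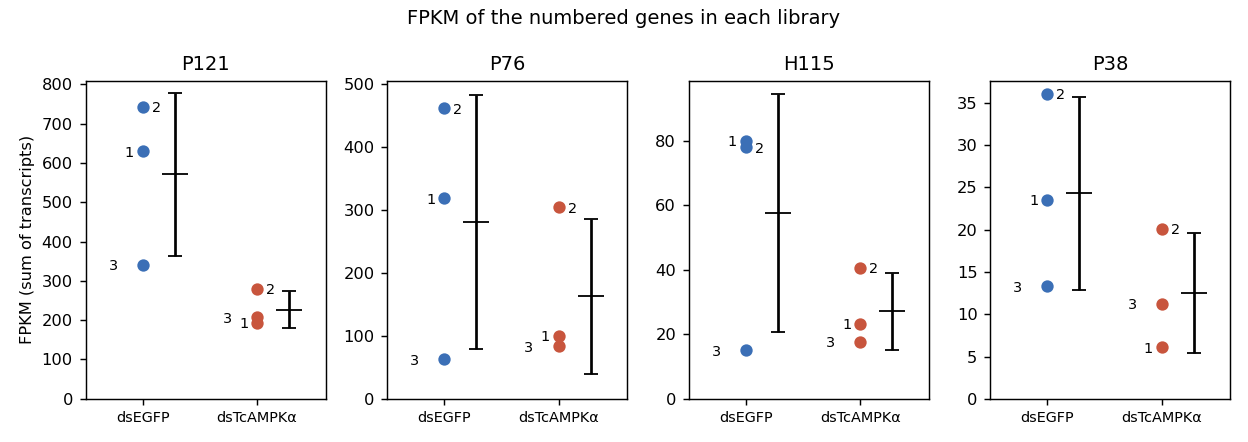
Levels of P121, P76, H115 and P38 in FPKM on linear axes that start at 0, 1 point per library numbered by replicate, with a horizontal line at the mean of each group of 3 and bars of 1 SD. The P121 groups do not overlap, whereas the groups of the other 3 genes do, and dsEGFP replicate 3 is the lowest control in all 4 panels.

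P121 was deposited as a pair of transcripts, and these did not move alike. The annotated transcript has 7 exons and 985 nt. The transcript assembled from the reads has 8 exons and 1202 nt and starts 277 bp upstream, so that it is longer by 217 nt. The annotated transcript was at 331, 328 and 341 FPKM in the dsEGFP libraries (333 ± 6.86, SD, n = 3) and at 43.4, 60.7 and 133 FPKM in the dsTcAMPKα libraries (78.9 ± 47.3, SD, n = 3), a mean 4.22-fold lower. Its control values were nearly equal and its groups lay far apart. The assembled transcript was at 299, 415 and 0 FPKM in the dsEGFP libraries and at 151, 220 and 74.3 FPKM in the dsTcAMPKα libraries, so its groups overlapped. In dsEGFP replicate 3 it was listed at 0 and the whole of P121 was assigned to the annotated transcript. The assembled transcript made up 47.4% and 55.9% of P121 in the other controls, and 77.6%, 78.4% and 35.9% in the dsTcAMPKα libraries. Most exons are shared by both transcripts, so the division between them is an estimate of the assembly software, and its part in the difference was not tested. With annotated transcripts alone, the log2 fold change of P121 was -2.22 (adjusted p = 0.0300, limma).

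**Figure D2:**
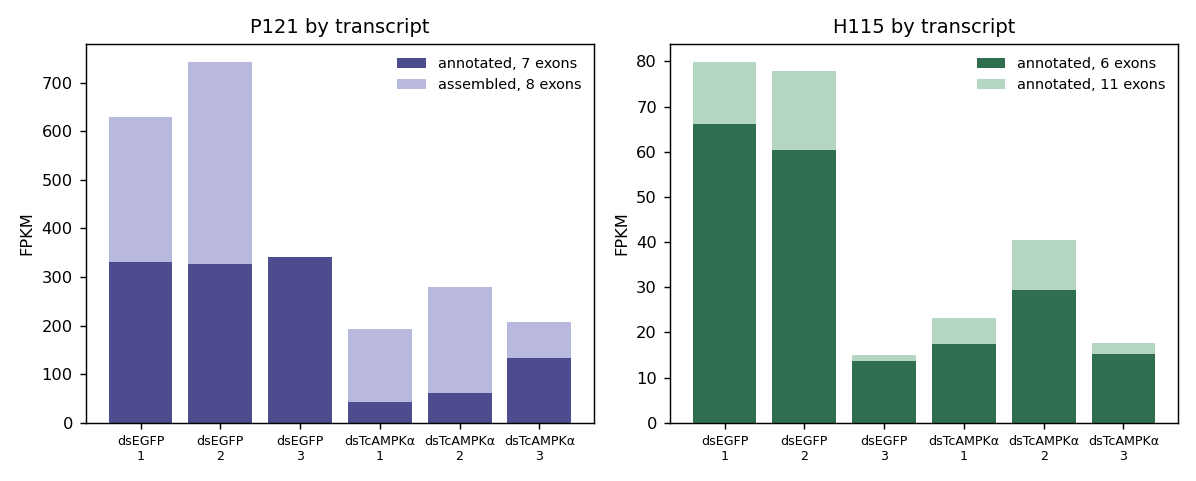
FPKM of each transcript of P121 and of H115, stacked in 1 bar for each of the 6 libraries on an axis that starts at 0. The annotated P121 transcript is near 331 FPKM in every control and at 43.4 to 133 FPKM after dsTcAMPKα, and the assembled P121 transcript is listed at 0 in dsEGFP replicate 3.

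P76 lies on the minus strand of NC_007419.2, from 11672535 to 11675912, with 1 annotated transcript of 3 exons and 939 nt. Its level was 318, 461 and 62.5 FPKM in the dsEGFP libraries and 100, 304 and 83.1 FPKM in the dsTcAMPKα libraries. P76 varied most within a group: the highest control was 7.37 times the lowest, and the highest dsTcAMPKα library was 3.66 times the lowest of its group. Both groups overlapped widely, with the lowest of all 6 values in a control. The means were 280 ± 202 and 162 ± 123 FPKM (SD, n = 3 each). The log2 fold change of -0.62 (SE 0.83, 95% confidence interval -2.60 to 1.37) did not pass the test (adjusted p = 0.625, limma). The interval holds both a strong fall and a clear rise, so these libraries do not settle the direction of P76. The size of the difference depended on single libraries of both groups. It was -1.48 without dsEGFP replicate 3 (adjusted p = 0.0896, limma) and -1.19 without dsTcAMPKα replicate 2. It was -0.05 without dsEGFP replicate 2, -0.26 without dsTcAMPKα replicate 3, -0.32 without dsEGFP replicate 1 and -0.40 without dsTcAMPKα replicate 1.

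H115, the homolog, lies on the plus strand of NC_007420.3 from 1471292 to 1478664, on the same sequence as P121. Its level was 79.9, 77.9 and 15.0 FPKM in the dsEGFP libraries and 23.3, 40.5 and 17.6 FPKM in the dsTcAMPKα libraries. Both higher values were in the controls dsEGFP replicate 1 and 2, but the lowest of all 6 libraries was dsEGFP replicate 3, so the groups overlapped. The means were 57.6 ± 36.9 and 27.1 ± 11.96 FPKM (SD, n = 3 each). The log2 fold change of -0.81 (SE 0.67, 95% confidence interval -2.42 to 0.79) did not pass the test (adjusted p = 0.414, limma). Without dsEGFP replicate 3 it was -1.59 and H115 was called lower (adjusted p = 0.0194, limma), in a fit where 4.68% of genes were called lower. In the other direction, it was -0.42 without dsEGFP replicate 1 and -0.44 without dsEGFP replicate 2 (adjusted p = 0.729 and 0.730, limma). H115 had both of its transcripts in the annotation. A short one of 6 exons and 844 nt supplied 72.5% to 90.8% of the gene's FPKM in each library, and the long one, of 11 exons and 1751 nt, supplied the rest. The short transcript was at 66.2, 60.4 and 13.6 FPKM in the dsEGFP libraries and at 17.5, 29.4 and 15.2 FPKM in the dsTcAMPKα libraries, the same order of libraries as for the whole gene.

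P38 was the least abundant and lies on the minus strand of NC_007418.3, from 11920231 to 11921104, with 1 annotated transcript of 2 exons and 825 nt. Its level was 23.5, 36.0 and 13.3 FPKM in the dsEGFP libraries and 6.09, 20.1 and 11.3 FPKM in the dsTcAMPKα libraries. dsTcAMPKα replicate 1 and 3 were below every control, and dsTcAMPKα replicate 2 was above dsEGFP replicate 3. The means were 24.3 ± 11.4 and 12.5 ± 7.11 FPKM (SD, n = 3 each). The log2 fold change of -0.94 (SE 0.49, 95% confidence interval -2.11 to 0.23) did not pass the test (adjusted p = 0.210, limma), nor did it pass in any of the 16 alternatives. It was -0.55 without dsTcAMPKα replicate 1 and -0.61 without dsEGFP replicate 2. The estimated reads behind a value were 194 to 1047 for P38, against 7570 to 28922 for P121, so that counting error was small beside the spread between libraries even for the lowest of the 4.

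All 4 log2 fold changes were negative, with a median of -0.88, where 36.1% of all genes tested were negative and the median of all genes was 0.20. Each of the 4 stayed negative in all 16 alternatives. Other filters on low values leave the fold change of a gene as it was, so those alternatives could not change a sign. For P76 and P38 the choice of transcripts changed nothing either. Under TPM, the scaling that raised the median of all genes most, to 0.44, the values were -1.01 for P121, -0.36 for P76, -0.56 for H115 and -0.71 for P38. TPM rescales each library as a whole, so it moved these values and the median of all genes together. After removal of the trend with transcript length, the median of the 4 genes was -0.65, against -0.0048 for all genes. The 4 thus lay closer to all genes than before. The exact permutation p of P76, H115 and P38, two-sided, was 0.7, 0.4 and 0.2 in that order.

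**Figure D3:**
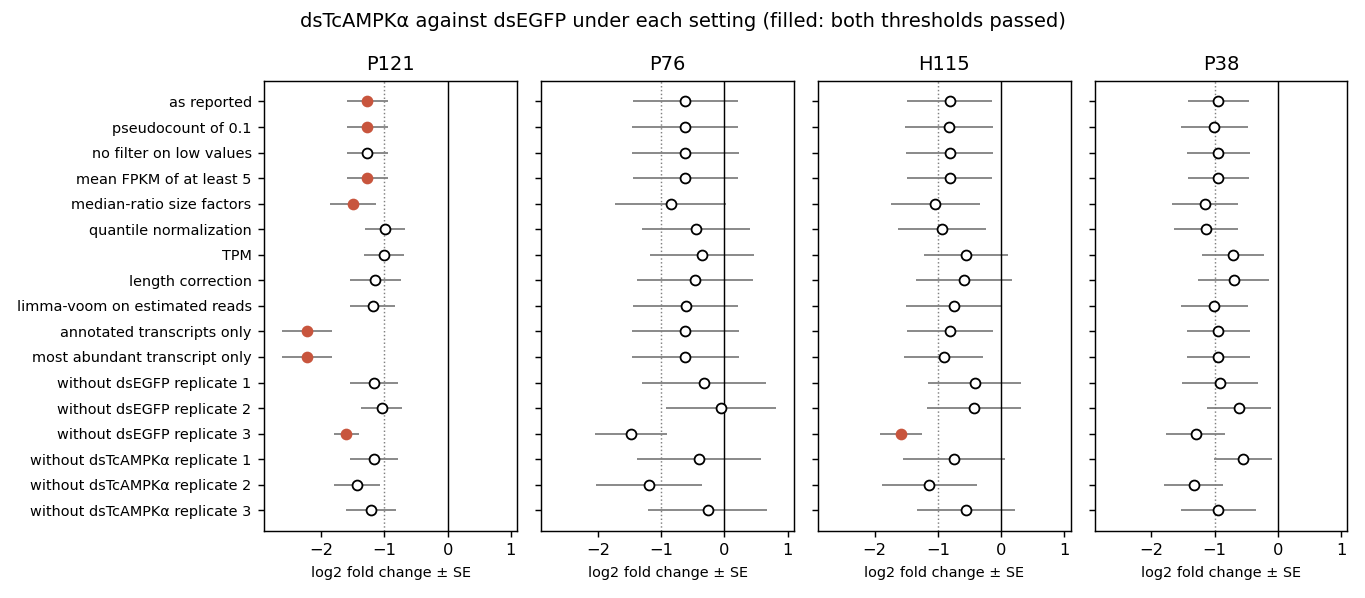
Log2 fold change (dsTcAMPKα minus dsEGFP) of each of the 4 genes as reported and under the 16 alternatives, with bars of 1 SE, a dotted line at the fold threshold and filled points where the gene passed both thresholds. All points lie below 0, P121 passes in 6 of the 16 alternatives, H115 passes without dsEGFP replicate 3, and P76 ranges from -1.48 to -0.05.

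A shared pattern over the libraries, noticed after the values were seen, ran through all 4 genes. dsEGFP replicate 3 was the lowest control in 4 of 4 genes, against 37.6% of the genes tested, and dsTcAMPKα replicate 2 was the highest of its group in 4 of 4, against 30.1%. Both held together in 12.6% of the genes tested. The summed level of the 4 genes was 1051, 1317 and 432 FPKM in the dsEGFP libraries and 324, 645 and 319 FPKM in the dsTcAMPKα libraries. The same libraries stood out in the sum of the hexamerins, storage proteins made by the fat body. The 6 hexamerin genes summed to 5386 to 13596 FPKM in the dsEGFP libraries, lowest in replicate 3. In the dsTcAMPKα libraries they summed to 3278 to 15520 FPKM, highest in replicate 2. Both traits held in 4 of the 6 genes, whereas HEX4 was highest in dsEGFP replicate 3 (969 FPKM, against 208 in each other control). Among cuticle genes tested, both traits held in 0 of 21, and among nerve genes in 0 of 4, which are few to set against 12.6%. Taken alone, dsEGFP replicate 3 was the lowest control in 3 of the 4 nerve genes but in 3 of the 21 cuticle genes. dsTcAMPKα replicate 2 was the highest of its group in 0 of the nerve and 1 of the cuticle genes. The 16 midgut genes, among them 9 peritrophic matrix proteins of the Pmp family, summed to 3412, 4989 and 3888 FPKM in the controls and to 3164, 3973 and 3897 FPKM after dsTcAMPKα. In this midgut sum dsEGFP replicate 3 was not the lowest control, while dsTcAMPKα replicate 2 was the highest of its group. The order of the controls leaned on Pmp2-b, the most abundant of the 16, at 535, 2045 and 1969 FPKM in the dsEGFP libraries. Gene by gene, however, dsEGFP replicate 3 was the lowest control in 12 of the 16 midgut genes (75%, against 37.6% of the genes tested), and 5 of the 16 had both library traits (31.25%, against 12.6%). Of the 16 genes, Pmp14 was called higher and none lower (log2 fold change 1.30, adjusted p = 0.0368, limma). The Pmp14 call was lost in 9 of 16 alternatives, among them the fits without dsEGFP replicate 2 and without each of the dsTcAMPKα libraries. The part of fat body or midgut in the levels of the 4 genes was not tested.

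Protease levels were above the homolog in most comparisons, which rest on 3 genes against 1. FPKM is a level per length and allows the comparison between genes. The order was P121, P76, H115 and P38 in 5 of 6 libraries, and in dsTcAMPKα replicate 2 P76 was above P121. P121 and P76 thus exceeded H115 in 6 of 6 libraries, whereas P38 was below H115 in all 6. The neighbours in this order whose levels crossed were P121 and P76, whose ratio ran from 0.924 to 5.45 over the libraries. The median protease level minus the homolog level, in log2(FPKM + 1), was 1.98, 2.55 and 1.99 in the dsEGFP libraries and 2.06, 2.76 and 2.18 in the dsTcAMPKα libraries. The groups overlapped in this measure, which was set by P76, the middle protease, in 5 of the 6 libraries and by P121 in dsTcAMPKα replicate 2. P121 was 7.89, 9.54 and 22.7 times H115 in the controls and 8.34, 6.91 and 11.8 times H115 after dsTcAMPKα, with both largest ratios in replicate 3 of their group. Among all 15099 genes, ranked by mean FPKM, P121 was 220th in the controls and 417th after dsTcAMPKα, P76 402nd and 574th, H115 1708th and 3765th, and P38 3771st and 6438th.

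The 4 genes formed no genomic cluster at a spacing of up to 20 kb, nor at 10 or 50 kb. P38 and P76 stood alone on their sequences. H115 and P121 were 52.1 kb apart on NC_007420.3, with 11 genes between them in the tables. The RefSeq annotation of the later assembly icTriCast1.1 had 10 protein-coding genes between H115 and P121, of which 9 were among those 11. Which of the pair comes first there was not checked.

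The stretch around H115 and P121 was rich in serine peptidase genes, and most of its genes had the library pattern of the pair. Within 50 kb of either gene lay 30 further genes, of which 25 were tested. Of these, 21 had a negative log2 fold change, with a median of -0.50 and a range of -1.10 to 0.55, and 0 passed both thresholds in limma or limma-voom, while 2 had an unadjusted p under 0.05, both lower, where 10.8% of all genes were lower and 25.7% higher at that p. In 21 of the 25, dsEGFP replicate 3 was the lowest control and dsTcAMPKα replicate 2 the highest of its group. All 11 genes between H115 and P121 had negative values, with a median of -0.51. Of the 25, 9 were annotated as serine peptidases, 7 of them by the gene ontology list and LOC657600 and LOC656711 by the table of changed genes, which was drawn up on this same contrast. All 9 were negative, with a median of -0.55, and the 7 from the gene ontology list had a median of -0.41. LOC657600, the most abundant of them, was at 765, 926 and 469 FPKM in the controls and at 387, 516 and 322 FPKM after dsTcAMPKα, with overlapping groups (log2 fold change -0.79, adjusted p = 0.119, limma). Without dsEGFP replicate 3, 7 of the 25 neighbours were called lower and their median was -0.89, where 4.68% of all genes were called lower. After removal of the trend with transcript length, 21 of the 25 were negative, with a median of -0.37, while the median of all genes moved from 0.20 to -0.0048, so the neighbours lay closer to all genes than before. Neighbouring members of a gene family can share reads, and the identity between these genes was not computed.

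**Figure D4:**
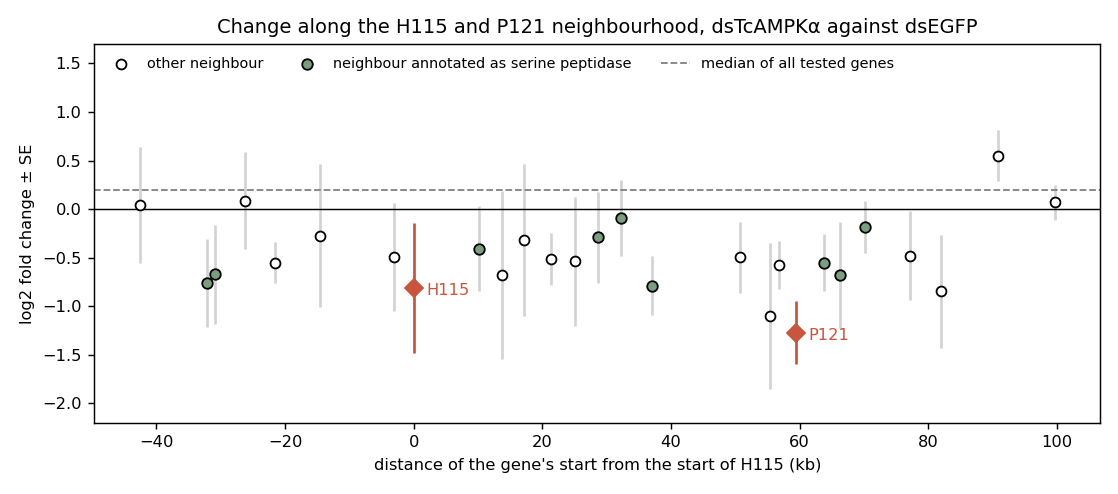
Log2 fold change of the genes tested around H115 and P121 against distance from the H115 start in kb, with bars of 1 SE, annotated serine peptidases as filled circles, and the median of all genes tested as a dashed line. P121 is the lowest point, 21 of the 25 neighbours lie below 0, and only P121 passed both thresholds.

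The surroundings of P76 and P38 held fewer expressed genes. Of 12 genes within 50 kb of P76, 6 were tested. One of them, LOC655599, was annotated as a trypsin in the table of changed genes, which was drawn up on this same contrast. It was at 1651, 1708 and 978 FPKM in the controls and at 627, 532 and 488 FPKM after dsTcAMPKα. Its groups did not overlap and it was called lower (log2 fold change -1.36, SE 0.26, adjusted p = 0.0280, limma). P76 beside it did not pass the test, but its 95% confidence interval, -2.60 to 1.37, holds -1.36. The difference between the genes was not tested. The LOC655599 call held in 9 of 16 alternatives and in 1 of the 6 fits with a library left out, the one without dsEGFP replicate 3. It was also lost with quantile scaling and with the length correction. LOC656013, another neighbour, was called higher (1.37, adjusted p = 0.0248, limma), a call kept in 11 of 16 alternatives. The LOC656013 call was lost with the length correction and without dsEGFP replicate 2 or any 1 dsTcAMPKα library. Of 7 genes within 50 kb of P38, 4 were tested and 0 were called in limma, in limma-voom or at an unadjusted p under 0.05. Among them LOC103312383, a serine peptidase by the gene ontology list, had a positive value that did not pass the test (1.32, adjusted p = 0.260, limma).

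**Figure D5:**
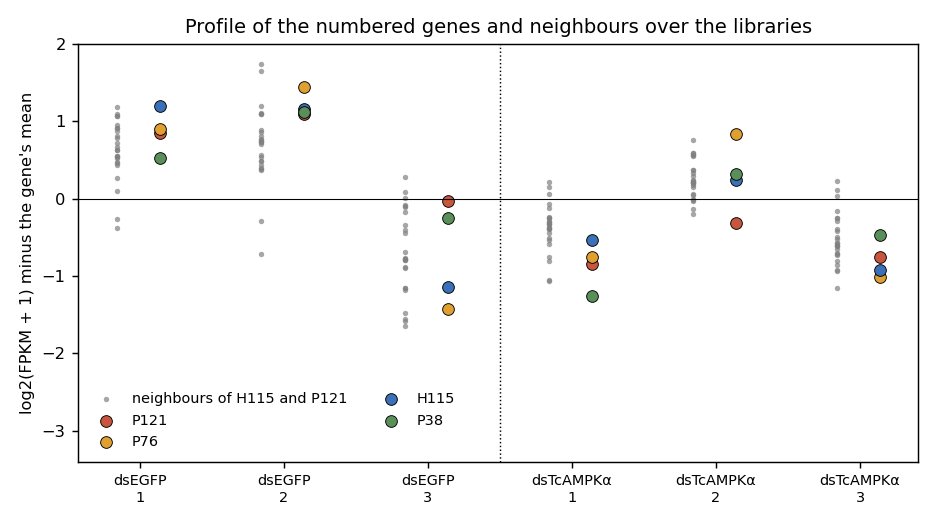
Level of each gene in each library as log2(FPKM + 1) minus the mean of that gene over the 6 libraries, for the 4 numbered genes (large points) and the tested neighbours of H115 and P121 (small points). In dsEGFP replicate 3 all 4 genes lie below the other controls, and in dsTcAMPKα replicate 2 they lie above the rest of their group.

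RefSeq gives a protease number to 7 further genes that the tables list under other names, all of them tested and 0 called in limma or limma-voom, with 2 at an unadjusted p under 0.05, both lower (10.8% of all genes). P32 (LOC655560) was at 56.5, 52.0 and 79.6 FPKM in the controls and at 67.7, 59.4 and 62.3 FPKM after dsTcAMPKα, and its log2 fold change of 0.03 was nearer to the median of all genes than to the value of P121. The other 6 are Ctlp genes, the chymotrypsin-like proteases of this beetle, of which 5 had negative values and all 6 had dsEGFP replicate 3 as the lowest control. Ctlp-5a, also P145, was the most abundant numbered protease, at 1689, 2413 and 643 FPKM in the controls and 602, 1372 and 703 FPKM after dsTcAMPKα (log2 fold change -0.72, adjusted p = 0.374, limma). Ctlp-6c, also P163, was at 510, 468 and 283 FPKM in the controls and 228, 234 and 187 FPKM after dsTcAMPKα. Its groups did not overlap, but the change missed both thresholds (-0.92, adjusted p = 0.0549, limma). Ctlp-5b, also P147, went the other way without passing the test (1.47, adjusted p = 0.313, limma), at 233, 71.3 and 49.3 FPKM in the controls and 61.6, 621 and 462 FPKM after dsTcAMPKα.

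The part of the gene ontology list used here, which is not the whole list, held 57 serine peptidase genes besides the members, among them Ctlp genes and neighbours already described. Of these, 43 were tested, 28 had a negative value, with a median log2 fold change of -0.29, where 36.1% of all genes were negative. In limma 3 were called lower and 0 higher, where 2.71% of all genes were called lower and 4.09% higher. The 3 genes, named after their values were seen, were LOC100141563, LOC103313702 and LOC103315123. At an unadjusted p under 0.05 there were 10 lower and 3 higher, where 10.8% and 25.7% of all genes were. The calls were 4 with limma-voom, 6 lower with median-ratio scaling, 5 lower with quantile scaling, and 2 lower and 2 higher with TPM. The count of 3 became 9 without dsEGFP replicate 3, where 4.68% of all genes were called lower, and 1 gene of the list was called higher there. It was 2 without dsEGFP replicate 1, and 0 without dsEGFP replicate 2 or any 1 of the dsTcAMPKα libraries. Those fits called few genes of any kind: 54 without dsEGFP replicate 2, and 0, 0 and 34 without dsTcAMPKα replicate 1, 2 and 3. A count of 0 there therefore says little about this list. In 21 of the 43, or 48.8%, dsEGFP replicate 3 was the lowest control and dsTcAMPKα replicate 2 the highest of its group, against 12.6% of all genes tested and 4 of the 4 members.

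Genes of the pathways in which such proteases act were few among the named genes. The serine protease inhibitor Serpin5 stayed under the filter on low values. Of the Spätzle genes, whose products are the ligands of Toll receptors once cut by a protease, Spz3 did not pass the test (0.38, adjusted p = 0.405, limma). The other one, spz6, was at 20.6, 5.57 and 31.6 FPKM in the controls and at 1.97, 1.56 and 2.25 FPKM after dsTcAMPKα, and was called lower (log2 fold change -2.52, SE 0.56, adjusted p = 0.0344, limma). Its groups did not overlap, and dsEGFP replicate 3 was the highest control, unlike in the 4 proteases and homologs. The spz6 call was kept in 9 of 16 alternatives and lost without dsEGFP replicate 1 or any 1 of the dsTcAMPKα libraries. It was also lost with the length correction, with limma-voom and with the most abundant transcript only. The recognition protein Gnbp2 (0.46), the lysozyme Lyz (-0.35) and the antimicrobial peptide cec2 (-0.76) did not pass the test, and neither did the cysteine protease 26-29-p (0.18).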

How the data were processed

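RNA-Seq tables of 6 whole-larva libraries were used, 3 per group. Per the study's methods, reads were mapped by HISAT2 on the Tcas5.2 genome, and the authors built transcripts using StringTie. Bowtie2 and TopHat2 also stand in the submitters' processing notes, with no role given, and versions are not given in the sources used here. The authors deposited FPKM per transcript, scaled to transcript length and library total. The deposited coverage per transcript, a signal of reads per base, was turned into estimated reads as coverage times length over 150 nt. The deposited values are not counts, so the count test of the study was not run.

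FPKM were summed by gene name. Genes with a mean of at least 1 FPKM were tested on log2 values with a pseudocount of 1, by limma 3.58.1 (eBayes with a variance trend, R 4.3.3), with Benjamini-Hochberg adjustment over the 10981 genes tested. Fold changes are on this scale and understate the change of low genes. Scripts ran in Python 3.11.15 with scipy 1.17.1, and the fit was tested on simulated data. The simulation drew independent noise and planted changes larger than that of P121. It therefore cannot speak for shifts shared across a library, or for calls near the thresholds. Calls needed an adjusted p under 0.05 and a log2 fold change beyond 1 in size. Libraries differed by little in reads assigned to transcripts, from 33518139 to 37584930 estimated reads. The summed FPKM did differ by group, at 785135 to 832532 in the dsEGFP and 661910 to 679634 in the dsTcAMPKα libraries.

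The 4 genes and all lists were chosen with earlier results of these data known. All 4 were named with values, as the rule on named genes asked for called genes, the largest changes, the most abundant genes and the widest ranges. Replicate numbers follow the order of deposition and pair nothing. Serine peptidases were taken from the part of the study's gene ontology list used here, plus 3 genes from the annotation in its table of changed genes, whose fold changes and p-values were not used. The lists for muscle, haemocytes and prophenoloxidases matched 0 symbols, and 2 matches of other kind (tailless among Toll receptors, Sp8 among proteases) were set aside after their names were seen. Alternatives were other pseudocounts, filters, scalings, transcript choices, limma-voom and leaving out each library. Protein and promoter sequences were not analysed here. The strand setting of the libraries is not given in the sources used here, so reads of overlapping genes on opposite strands cannot be told apart.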

Additional observations from a re-analysis of the deposited data

How the results depend on the processing

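The count of members called lower was 1. It was 0 with no filter on low values, quantile scaling, TPM, the length correction and limma-voom, and 0 to 2 when a library was left out: 2 without dsEGFP replicate 3 (P121 and H115) and 0 without any of the others. In these 5 settings the adjusted p of P121 was 0.0597, 0.0819, 0.0505, 0.227 and 0.0662 (limma). No member was called higher in any of them. The 747 calls over all genes became 1619 with TPM and 121 with the length correction, and 0 to 1199 when a library was left out: 1199 without dsEGFP replicate 3, 54 without dsEGFP replicate 2, 34 without dsTcAMPKα replicate 3, and 0 in limma without dsTcAMPKα replicate 1 or 2, where 2896 and 2957 genes had an unadjusted p under 0.05. Higher against lower calls were 449 to 298, 163 to 448 with median-ratio scaling, 234 to 322 with quantile scaling and 1400 to 219 with TPM, while the median log2 fold change of all genes was 0.20, -0.01, 0.06 and 0.44. The median protease level minus the homolog was 2.25 on average over the libraries. It was 1.61 with annotated transcripts only, where P121 loses the assembled transcript by construction. Its direction was kept in the 10 alternatives run for it, but most of these could not reverse it. The filter removed no member, and median-ratio scaling moves all genes of a library together. The measure was positive in every library, so leaving a library out could not turn its sign. No member lay in a cluster at 10, 20 or 50 kb. No paired analysis was possible because the labels give no replicate numbers. With 3 pools a group and intervals as wide as that of P76, differences of the size seen in P121 were not detectable for P76 or H115.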

Other observations

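The genes with the most similar profiles were sought by a rule chosen after the values were seen: the root mean square difference between profiles of log2(FPKM + 1), each centred on its own mean over the 6 libraries. Among the members, P76 and H115 were the most alike, at 0.331, and P121 and P76 the least alike, at 0.760. H115 was the 10th of all genes in likeness to P76. The gene most like P76 was Cht8, a chitinase gene, at 0.199, followed by LOC103313062, a serine peptidase by the gene ontology list, at 0.216. LOC103314641, which lies between H115 and P121, was the 5th, at 0.240. For H115 the nearest were LOC659648 at 0.102 and LOC658235, a neighbour of P121 on the same sequence, at 0.148. For P121 the nearest were LOC656312 at 0.0977 and LOC103313141 at 0.117, and for P38 LOC664385 at 0.117. All of these points share the same 6 libraries.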
